A study of Mus musculus with 24 samples.

Results

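Extracellular proteolysis in primary mouse epidermal progenitors was followed through the transcripts of 5 proteases that act on the matrix around cells. *Mmp2* and *Mmp24* encode matrix metalloproteinases, *Adamts15* an ADAMTS protease, and *Plat* and *Plau* the tissue-type and urokinase-type plasminogen activators. They were taken by name from a table of 10818 genes, and all 5 were present. The names had been selected on measured values of these same libraries: *Mmp24* and *Adamts15* stood among the genes lower in *Id1*-silenced cells at 0 h, and *Adamts15* also among those higher after ID1 induction at 0 h. Their values in those contrasts, and in every contrast that shares those 0 h libraries with a change to be judged, are therefore given as a description with no test. Which values led to the choice of *Mmp2*, *Plat* and *Plau* is not recorded, nor whether further values entered that of *Mmp24* and *Adamts15*. The adjusted p-values printed for the 5 are therefore not independent support.

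Poly(A) RNA was sequenced from 8 groups of 3 libraries. All cells were wild type, were derived from newborn pups, were grown on 3T3-J2 feeders in low-calcium E-Low medium, and had been infected with lentivirus and selected with puromycin. The shRNA experiment compared *shScr*, a scrambled control whose columns carry the name H2BGFP, with *shId1*, which targets *Id1*, and the induction experiment compared cells with a doxycycline-inducible ID1 construct left without the drug (-dox) or given it for 3 days (+dox). Each of these 4 conditions was sampled at 0 h, in low calcium, and after 24 h in high calcium, which starts keratinocyte differentiation. No group stayed in low calcium for 24 h, so an effect of calcium and one of time in culture cannot be told apart, and -dox cells received no drug, so doxycycline and ID1 induction cannot be told apart either. The labels call the 3 libraries of a group biological replicates without naming separate cultures, so p-values here reflect only how much such libraries vary.

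Proteases of these families are mostly made as inactive precursors and are held in check outside the cell by inhibitors. Metalloproteinases and ADAMTS enzymes use a zinc ion to cut collagens, laminins and proteoglycans, and the plasminogen activators are serine proteases that cut plasminogen into plasmin, which cuts fibrin and several matrix proteins. In skin, this proteolysis is best known from the migration of keratinocytes into wounds. RNA levels say nothing of how much of each enzyme is active.

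Both chemistries can be read in the coding sequence. For the 3 metalloproteases the stretch that holds the zinc is shown 5′ to 3′ from the GENCODE M21 transcripts, with the 3 zinc-binding histidine codons in capitals.
*Mmp2*: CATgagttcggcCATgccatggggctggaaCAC
*Mmp24*: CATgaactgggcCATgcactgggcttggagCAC
*Adamts15*: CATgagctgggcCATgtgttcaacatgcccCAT
These 33 bases are codons 403 to 413 of 662 in *Mmp2*, codons 255 to 265 of 618 in *Mmp24* and codons 361 to 371 of 950 in *Adamts15*. *Mmp2* and *Mmp24* share 25 of the 33 bases, *Mmp24* and *Adamts15* share 21, and *Mmp2* and *Adamts15* share 19. The third histidine codon is CAC in both MMPs and CAT in *Adamts15*.

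For the plasminogen activators the stretch around the active-site serine is shown, with the serine codon in capitals.
*Plat*: ggtgacTCGggaggccct
*Plau*: ggcgatTCTggaggaccg
They are codons 508 to 513 of 559 in *Plat* and 376 to 381 of 433 in *Plau*, and 13 of 18 bases are the same. In the GRCm38 build *Mmp2* (ENSMUSG00000031740) lies on the plus strand at chr8:92827291-92853420 and *Plat* (ENSMUSG00000031538), also on the plus strand, at chr8:22757727-22782844. *Mmp24* (ENSMUSG00000027612) lies on the plus strand at chr2:155775342-155818366, *Adamts15* (ENSMUSG00000033453) on the minus strand at chr9:30899155-30922452 and *Plau* (ENSMUSG00000021822) on the plus strand at chr14:20836660-20843385. All 5 are annotated as protein coding. The 3′ end of *Mmp24* overlaps *BC029722*, a gene on the opposite strand. The libraries were made with a stranded kit, but how the counting treated strand is not stated, so reads from the overlap may be shared between these genes.

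Values are CPM on library sizes scaled by TMM, a method that evens out library composition. The libraries held 21442371 to 35720140 reads in the table, so that 1 read is worth 0.0263 to 0.0496. The value of 1 read could be checked in 18 libraries, and read numbers in the other 6 are less certain. The highest of these depths, in +dox replicate 3 at 0 h, is from an unchecked library. Libraries of a group correlated with r between 0.976 and 0.996 on the log2 scale, and in the shRNA experiment the 4 libraries numbered 1 stood farthest from the others. All 7 basal keratinocyte markers listed were in the table, with summed levels of 25106 to 60655 over the 24 libraries, while of 21 fibroblast markers 5 were in it and *Col1a1*, *Col1a2*, *Col3a1*, *Dcn*, *Pdgfra* and *Vim* were not. None of the 8 immune markers was in the table. *Id1* itself was at 60.7, 103 and 111 in *shScr* and at 25.7, 19.7 and 39.0 in *shId1* cells at 0 h, without overlap. After 24 h it was at 27.9, 44.8 and 69.6 in *shScr* and at 17.6, 40.1 and 29.7 in *shId1* cells, which overlap. It was at 10.5, 13.2 and 7.15 without and 41.6, 107 and 73.0 with doxycycline at 0 h, and at 73.9, 67.5 and 59.7 without and 106, 96.0 and 76.1 with it at 24 h. The control cells of the experiments thus differed at 0 h, with all -dox libraries below all *shScr* libraries for *Id1* at 0 h, and their vectors and cultures differ too, so changes are tested within an experiment, and the orders of level over all 8 groups given below are descriptions that span both. At 24 h *Id1* itself was called in neither experiment. Its log2 fold change was -0.67 (SE 0.38, limma adjusted p = 0.265) in *shId1* against *shScr* cells at 24 h. In +dox against -dox cells at 24 h it was 0.46 (SE 0.27, limma adjusted p = 0.232). Silenced and induced at 24 h therefore name the condition of the cells, not an established difference in *Id1* transcript.

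A change was called at a limma adjusted p under 0.05, over all genes of the experiment, with a change of more than 2-fold on the log2(value + 0.5) scale. By this rule 1.94% of 10790 genes were called in *shId1* against *shScr* cells at 0 h and 3.35% at 24 h, where 2 and 2 of the 5 proteases were called, all lower. With doxycycline against without it, 5.27% of 10789 genes were called at 0 h and 2.11% at 24 h, and 1 of 5 proteases each time, *Adamts15*, which was higher. Between 24 h and 0 h, 18.8% of genes were called in *shScr*, 15.6% in *shId1*, 30.8% in -dox and 25.0% in +dox cells, and 1, 3, 3 and 2 of the proteases. The change over 24 h itself differed between *shId1* and *shScr* cells in 3.56% of genes and for 2 of the 5 proteases, and between +dox and -dox cells in 3.55% of genes and for 0 of the 5. In that last comparison 3 of 5 proteases had an unadjusted limma p under 0.05, and edgeR and DESeq2 on recovered reads called 0 each, with 1 library of +dox cells at 0 h in place of 3. Counts that include *Mmp24* or *Adamts15* in a contrast that chose them are a description.

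**Figure D1:**
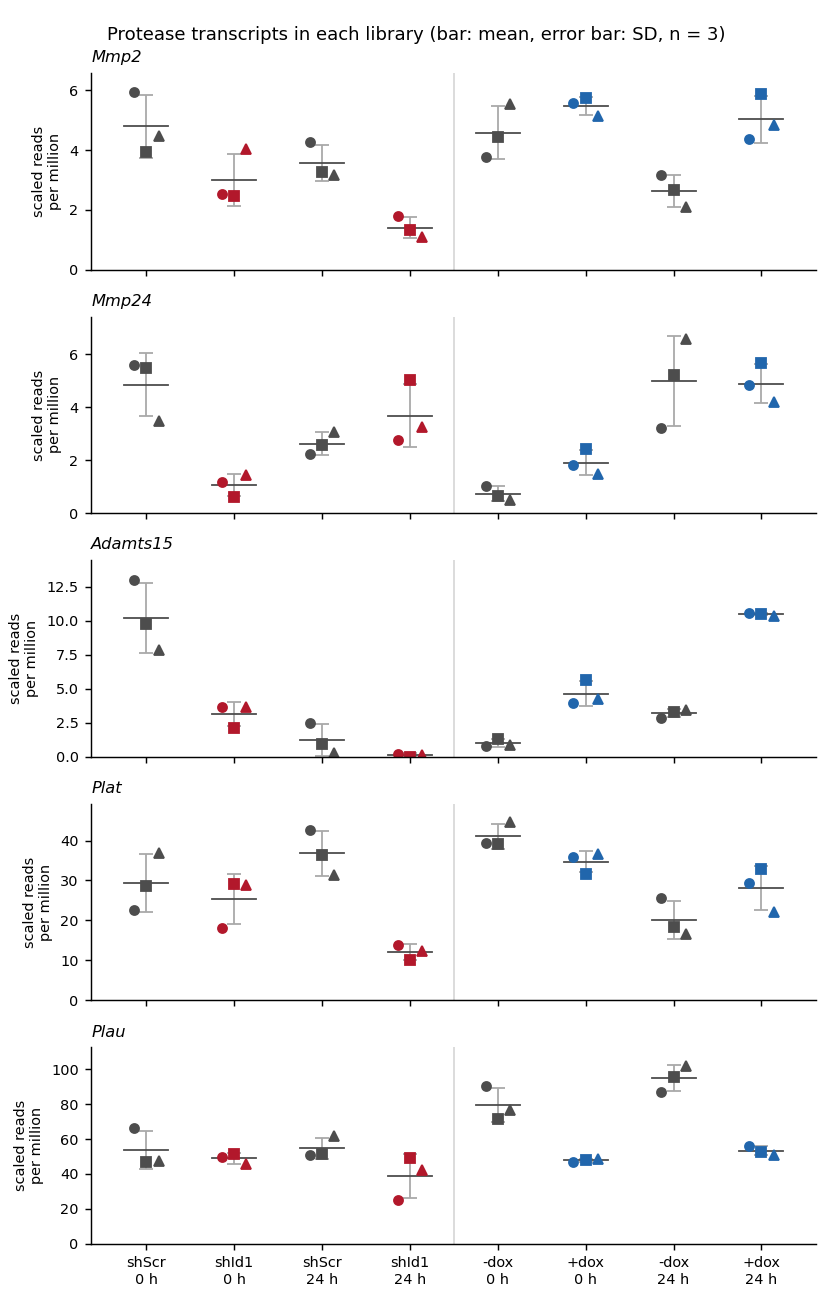
Level of each protease transcript (vertical axes, TMM-scaled CPM, each starting at 0) in the 24 libraries by group, with replicates 1, 2 and 3 as circle, square and triangle, horizontal bars at the mean and error bars of 1 SD (n = 3). All but *Mmp24* have their lowest mean in *shId1* cells at 24 h, and *Adamts15* spans 0 to 13.0 while *Plau* spans 24.9 to 102.

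*Mmp2* encodes gelatinase A, which cleaves type IV collagen of basement membranes. Its transcript was scarce, between 1.09 and 5.95 in all 24 libraries. In cells kept in low calcium it was at 5.95, 3.95 and 4.47 in *shScr* and 2.52, 2.46 and 4.02 in *shId1* libraries. One *shId1* library lay inside the *shScr* range, and the log2 fold change of -0.61 (SE 0.22) is a description.

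After 24 h *Mmp2* was at 4.28, 3.25 and 3.17 in *shScr* and 1.78, 1.31 and 1.09 in *shId1* cells. Every *shId1* library was below every *shScr* library, with a log2 fold change of -1.11 (SE 0.22, limma adjusted p = 0.00628), or 0.464 of the control level. It stayed beyond 2-fold at -1.13 without the libraries numbered 1, but without *shScr* replicate 1 it was -0.99 and without *shId1* replicate 3 also -0.99, inside the 2-fold limit. On recovered reads, where *shId1* cells at 24 h are represented by replicate 2 alone and are assumed to vary like the other groups, the adjusted p was 0.0964 with edgeR and 0.0713 with DESeq2.

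With ID1 induced *Mmp2* was higher than its control at 24 h. It was at 4.36, 5.89 and 4.83 in +dox against 3.16, 2.65 and 2.08 in -dox cells, without overlap and with a log2 fold change of 0.82 (SE 0.17, adjusted p = 0.00416 in limma), which is under the 2-fold limit. At 0 h the levels of 5.57, 5.73 and 5.13 in +dox and 3.77, 4.44 and 5.54 in -dox cells overlapped, and the log2 fold change was 0.25 (SE 0.17, limma adjusted p = 0.293).

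Over 24 h in calcium the fitted change of *Mmp2* was negative in all 4 conditions, and in 2 of them its adjusted p was under 0.05. The log2 fold change was -0.37 (SE 0.22, limma adjusted p = 0.162) in *shScr*, -0.87 (SE 0.22, adjusted p = 0.00488) in *shId1*, -0.70 (SE 0.17, adjusted p = 0.00199) in -dox and -0.12 (SE 0.17, adjusted p = 0.538) in +dox cells. None was called at 2-fold, and without the libraries numbered 1 the value in *shId1* cells was -1.11 with an adjusted p of 0.00104, which is called, as was the value of -1.02 without *shId1* replicate 1 at 24 h alone. The change over time was not found to differ between *shId1* and *shScr* cells (difference -0.50, SE 0.31, limma adjusted p = 0.387) or between +dox and -dox cells (0.58, SE 0.25, adjusted p = 0.162).

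Ordered by mean, *Mmp2* ran from 5.48 in +dox cells at 0 h over 5.03 in +dox at 24 h, 4.79 in *shScr* at 0 h, 4.58 in -dox at 0 h, 3.57 in *shScr* at 24 h, 3.00 in *shId1* at 0 h and 2.63 in -dox at 24 h to 1.39 in *shId1* cells at 24 h. Neighbours in this order overlapped except for the last step, where *shId1* cells at 24 h lay apart below -dox cells at 24 h.

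*Mmp24* encodes a membrane-anchored metalloproteinase (MT5-MMP), known mainly from the nervous system. It was also scarce, at 0.481 to 6.55. In low calcium it was at 5.60, 5.47 and 3.47 in *shScr* and 1.17, 0.600 and 1.43 in *shId1* libraries. The groups did not overlap and the log2 fold change was -1.78 (SE 0.26), a description since this contrast chose the gene. In reads these libraries held 156, 140 and 118 reads of *shScr* and 39, 19 and 42 reads of *shId1* cells, where the value of 1 read was not checked in *shId1* replicate 1. The overlapping *BC029722* was at 21.7, 23.1 and 25.0 in *shScr* and 28.6, 26.3 and 29.4 in *shId1* cells there, higher where *Mmp24* was lower.

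After 24 h the groups overlapped. *Mmp24* was at 2.23, 2.57 and 3.08 in *shScr* and 2.75, 5.01 and 3.27 in *shId1* cells, with a log2 fold change of 0.39 (SE 0.26, limma adjusted p = 0.366). Its change over time had opposite signs: the log2 fold change over 24 h was -0.76 (SE 0.26) in *shScr* and 1.42 (SE 0.26) in *shId1* cells, with no overlap between times in either. The difference between these changes was 2.17 (SE 0.37), and since all 3 values use the libraries on which the gene was selected, no test is given. *BC029722* was at 17.7, 24.8 and 27.8 in *shScr* and 34.6, 46.3 and 35.7 in *shId1* cells at 24 h, without overlap. In *shId1* cells it too was higher at 24 h than at 0 h, without overlap, while in *shScr* cells the times overlapped. Its part in these *Mmp24* values was not tested.

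No value of the induction experiment is recorded as having led to the choice of *Mmp24*. The members were chosen with earlier results of these data known, so the adjusted p-values printed for it there are not independent support. At 0 h *Mmp24* was at 1.04, 0.653 and 0.481 without and 1.82, 2.40 and 1.47 with doxycycline. All +dox libraries were higher, with a log2 fold change of 0.98 (SE 0.24, limma adjusted p = 0.00613), just under the 2-fold limit. The value passed the limit at 1.16 without -dox replicate 1 and at 1.11 without +dox replicate 3. Over all 19 settings it ran from 0.71 to 1.31, with an adjusted p of up to 0.0812, which was that of edgeR on recovered reads with 1 +dox library at 0 h.

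After 24 h *Mmp24* had risen in both conditions. It was at 3.20, 5.22 and 6.55 in -dox cells, a log2 fold change of 2.14 over 24 h (SE 0.24, limma adjusted p = 1.19e-06), or 4.41-fold. In +dox cells it was at 4.81, 5.65 and 4.19, a log2 fold change of 1.18 (SE 0.24, adjusted p = 0.000475), or 2.26-fold. Both were called under all 19 settings run. The 24 h groups overlapped, with a log2 fold change of 0.01 (SE 0.24, limma adjusted p = 0.973). The rises were not found to differ (difference -0.96, SE 0.34, adjusted p = 0.0904), although without -dox replicate 1 at 24 h the difference was -1.22 with an adjusted p of 0.0256. *BC029722* was at 25.0 to 26.7 in -dox cells at 0 h and 33.1 to 42.4 at 24 h, and at 27.9 to 34.6 and 41.2 to 48.3 in +dox cells, so it too was higher at 24 h, and its part in the *Mmp24* values was not tested.

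The 8 group means of *Mmp24* ran from 4.99 in -dox cells at 24 h over 4.89 in +dox at 24 h, 4.84 in *shScr* at 0 h, 3.67 in *shId1* at 24 h, 2.62 in *shScr* at 24 h and 1.90 in +dox at 0 h to 1.07 in *shId1* and 0.724 in -dox cells at 0 h. Only the step from +dox to *shId1* cells at 0 h separated neighbours without overlap. Of the 4 groups with the lowest means 3 were taken at 0 h.

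*Adamts15* encodes a secreted protease that cleaves the proteoglycans versican and aggrecan. Of the 5 transcripts it had the widest spread, with group means differing by 85.5-fold. The lowest of these means, in *shId1* cells at 24 h, rests on 6, 0 and 4 reads, so the size of this ratio is uncertain. In replicates 1 and 3 of that group the value of 1 read was not checked. In low calcium *Adamts15* was at 13.0, 9.77 and 7.87 in *shScr* and 3.63, 2.09 and 3.68 in *shId1* libraries. All *shId1* libraries were lower, and the log2 fold change of -1.57 (SE 0.41) is given as a description.

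By 24 h *Adamts15* was lower still in both. It was at 2.50, 0.898 and 0.233 in *shScr*, which were 83, 21 and 5 reads, and at 0.223, 0 and 0.145 in *shId1* cells, which were 6, 0 and 4 reads. The lowest *shScr* library, with 5 reads, lay beside the highest *shId1* library, with 6 reads, so depth limits what can be said of this pair. The value of 1 read was not checked in *shScr* replicate 1 or in *shId1* replicates 1 and 3, so their read numbers are less certain. The log2 fold change was -1.24 (SE 0.41, limma adjusted p = 0.0640), not called. With the replicate number as a block, a pairing that the correlations of same-numbered libraries bear out only in part, the limma adjusted p was 0.0263 and the change was called. Without *shScr* replicate 3 alone it was -1.73, with an adjusted p of 0.00825, which is called, and without the libraries numbered 1 it was -0.83, with an adjusted p of 0.102.

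The change of *Adamts15* over 24 h was -2.85 (SE 0.41) in *shScr* and -2.53 (SE 0.41) in *shId1* cells, on the log2(value + 0.5) scale. Both are descriptions, for they start from the libraries that chose the gene, and the pseudocount sets the size of the second: it was -3.98 with a pseudocount of 0.1 and -1.86 with 1.

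Under ID1 induction *Adamts15* was higher at both times. At 0 h it was at 0.796, 1.31 and 0.825 in -dox and 3.92, 5.67 and 4.26 in +dox cells, a log2 fold change of 1.80 (SE 0.17) that is a description. At 24 h, in libraries not recorded as used for the choice, it was at 2.88, 3.28 and 3.42 in -dox and 10.5, 10.5 and 10.4 in +dox cells. The +dox libraries lay close together and did not overlap with -dox, with a log2 fold change of 1.58 (SE 0.17, limma adjusted p = 3.08e-05), or 2.98-fold. It was called under all 19 settings run, with log2 fold changes of 1.46 to 1.72.

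In contrast to the shRNA experiment, *Adamts15* was higher after 24 h in calcium in both conditions of the induction experiment, by 1.34 (SE 0.17) in -dox and 1.12 (SE 0.17) in +dox cells on the log2 scale, without overlap between times. These start from the 0 h libraries in which the gene had been named, and no test is given. The share of mitochondrial transcripts moved with this experiment too, from 2.84 to 3.47% at 0 h to 0.838 to 1.33% at 24 h, against 2.27 to 3.34% and 2.16 to 2.95% in the shRNA experiment, and its part in the changes over 24 h was not tested. Vector, culture and *Id1* level differ between the experiments and cannot be told apart.

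From highest to lowest mean, *Adamts15* was at 10.5 in +dox cells at 24 h, 10.2 in *shScr* at 0 h, 4.62 in +dox at 0 h, 3.19 in -dox at 24 h, 3.13 in *shId1* at 0 h, 1.21 in *shScr* at 24 h, 0.976 in -dox at 0 h and 0.123 in *shId1* cells at 24 h. Gaps without overlap separated *shScr* from +dox cells at 0 h, +dox at 0 h from -dox at 24 h, and -dox at 0 h from *shId1* at 24 h.

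**Figure D2:**
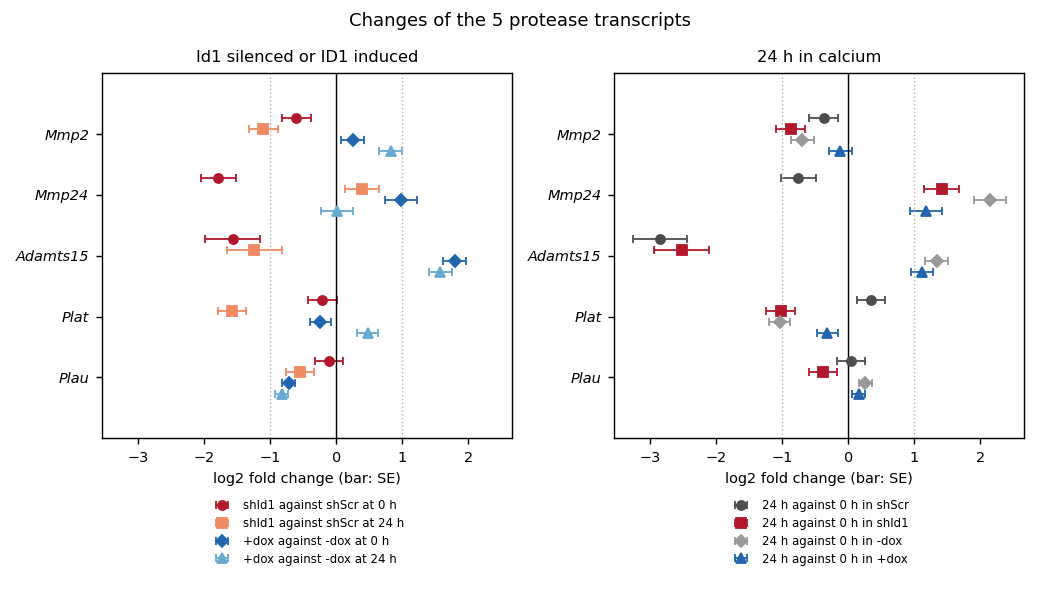
Log2 fold change of each protease (horizontal axis, fitted with limma on log2 of value + 0.5, error bars of 1 SE, dotted lines at 2-fold) for silencing and induction at each time on the left and for 24 h in calcium within each condition on the right. Over 24 h *Adamts15* is at -2.85 and -2.53 in the shRNA experiment and at 1.34 and 1.12 in the induction experiment, while *Plau* stays between -0.39 and 0.26.

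*Plat*, the tissue-type activator, was far more abundant than the metalloproteases, at 9.94 to 44.7. In low calcium it was at 22.5, 28.7 and 36.8 in *shScr* and 18.2, 29.0 and 28.9 in *shId1* cells. These ranges overlap, with a log2 fold change of -0.21 (SE 0.21) given as a description like the other members of that contrast.

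At 24 h the groups were apart. *Plat* was at 42.6, 36.4 and 31.4 in *shScr* and 13.8, 9.94 and 12.3 in *shId1* cells, a log2 fold change of -1.58 (SE 0.21, limma adjusted p = 0.000800), or 0.335 of the control. It was called under all 20 settings run, with values of -1.76 to -1.45. The silenced cells lost transcript over the 24 h, by -1.03 on the log2 scale (SE 0.21, adjusted p = 0.00150), while *shScr* cells were at 0.34 (SE 0.21, limma adjusted p = 0.189). Without the libraries numbered 1 these values were -1.35 and 0.06, and the fall in *shId1* cells was inside the 2-fold limit, between -0.92 and -0.90, without *shId1* replicate 2 at either time or replicate 3 at 0 h. The difference between the changes was -1.37 (SE 0.30, limma adjusted p = 0.0205), which passed the rule. It lost the call, with adjusted p between 0.0512 and 0.0634, when *shScr* replicate 2 at either time, or *shId1* replicate 2 or 3 at 0 h, was left out.

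In the induction experiment *Plat* fell in -dox cells, from 39.3, 39.2 and 44.7 at 0 h to 25.5, 18.2 and 16.5 at 24 h. The log2 fold change was -1.04 (SE 0.16, limma adjusted p = 2.54e-05), called, though it was between -0.98 and -0.91 without -dox replicate 3 at 0 h or without replicate 2 or 3 at 24 h. In +dox cells it went from 35.9, 31.7 and 36.6 to 29.4, 32.8 and 22.0, which overlap, a log2 fold change of -0.32 (SE 0.16, adjusted p = 0.0800 in limma). The difference between these changes was 0.72 (SE 0.22, limma adjusted p = 0.0544), short of the threshold.

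Comparing +dox with -dox cells directly, the log2 fold change of *Plat* was -0.24 (SE 0.16, limma adjusted p = 0.260) at 0 h and 0.48 (SE 0.16, adjusted p = 0.0431) at 24 h, neither of them called at 2-fold. The 0 h groups did not overlap, with +dox lower, and the 24 h groups overlapped.

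In order of mean *Plat* was at 41.1 in -dox cells at 0 h, 36.8 in *shScr* at 24 h, 34.7 in +dox at 0 h, 29.3 in *shScr* at 0 h, 28.1 in +dox at 24 h, 25.4 in *shId1* at 0 h, 20.1 in -dox at 24 h and 12.03 in *shId1* cells at 24 h. Again the last step was the only one without overlap.

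*Plau*, the urokinase-type activator that works at its cell-surface receptor, was the most abundant of the 5 in every group. With *Id1* silenced it was not called at either time. It was at 66.03, 46.8 and 47.5 in *shScr* and 49.9, 51.1 and 45.5 in *shId1* cells at 0 h, with a log2 fold change of -0.11 (SE 0.21). It was at 51.0, 51.4 and 61.7 in *shScr* and 24.9, 49.2 and 42.1 in *shId1* cells at 24 h. Here the groups did not overlap, but 1 *shId1* library was much lower than the others of its group, and the log2 fold change of -0.54 (SE 0.21) had a limma adjusted p of 0.109. Without the libraries numbered 1 it was -0.30 (adjusted p = 0.0811).

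With ID1 induced *Plau* was lower at both times, by less than 2-fold. It was at 90.6, 71.4 and 76.4 in -dox and 46.7, 47.9 and 48.5 in +dox cells at 0 h, a log2 fold change of -0.72 (SE 0.10, limma adjusted p = 4.21e-05), or 0.606 of the control. It was at 87.1, 95.5 and 102 in -dox and 56.2, 52.6 and 51.0 in +dox cells at 24 h, a log2 fold change of -0.82 (SE 0.10, adjusted p = 5.41e-05), or 0.565. Neither pair of groups overlapped, and leaving aside the fold limit both passed the adjusted p under all 19 settings run, the highest being 0.00516 at 0 h and 0.00215 at 24 h.

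*Plau* changed little over 24 h in calcium. The log2 fold change over 24 h was 0.05 (SE 0.21, limma adjusted p = 0.8601) in *shScr*, -0.39 (SE 0.21, adjusted p = 0.139) in *shId1*, 0.26 (SE 0.10, adjusted p = 0.0229) in -dox and 0.16 (SE 0.10, adjusted p = 0.152) in +dox cells. None reached 2-fold. The change was not found to differ between *shId1* and *shScr* (difference -0.43, SE 0.30, limma adjusted p = 0.453) or between +dox and -dox cells (-0.10, SE 0.14, adjusted p = 0.699).

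The means of *Plau* ran from 94.8 in -dox cells at 24 h and 79.4 in -dox at 0 h to 54.7 and 53.4 in *shScr* at 24 h and 0 h, 53.3 in +dox at 24 h, 48.8 in *shId1* at 0 h, 47.7 in +dox at 0 h and 38.7 in *shId1* cells at 24 h. Below the -dox cells, which stood apart, all neighbours overlapped.

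Per kb of transcript *Plau* led in all 8 groups, at 16.5 to 40.5, and *Plat* followed at 4.76 to 16.3. The 3 metalloproteases had levels per kb of 0.0207 to 1.78, and their order changed with the group. In -dox cells at 0 h *Mmp2* was at 1.49 per kb against 0.168 for *Mmp24* and 0.165 for *Adamts15*, and in +dox cells at 24 h *Adamts15* was at 1.77 against 1.63 for *Mmp2*. *Plau* made up 54.9% of the summed level per kb of the 5 in +dox cells at 0 h and 79.4% in -dox cells at 24 h.

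**Figure D3:**
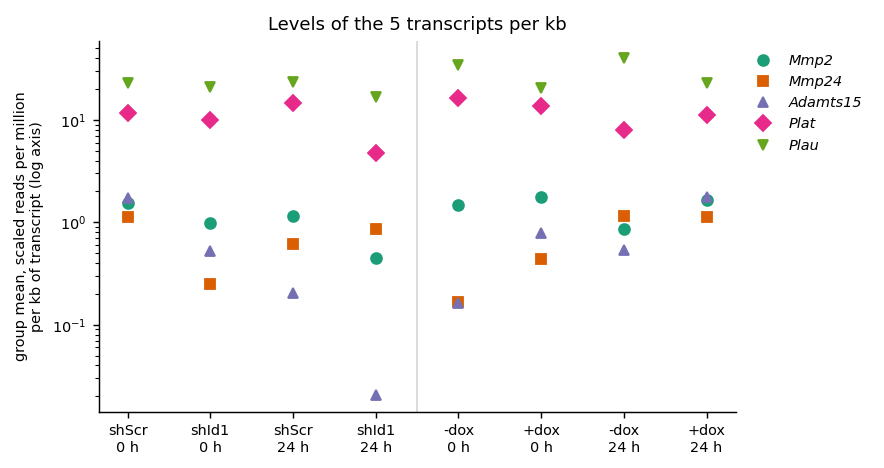
Group mean of each protease per kb of transcript (vertical log axis, TMM-scaled CPM per kb) in the 8 groups. *Plau* and *Plat* lie above the 3 metalloproteases in all groups, and *Adamts15* reaches its lowest level, 0.0207, in *shId1* cells at 24 h.

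Over the 24 libraries the 5 transcripts did not follow a single course. As a description, on log2(value + 0.5) and with libraries that share their group, depth and composition, *Mmp2* was most like *Plat* (Pearson r = 0.798) and *Adamts15* (0.667), and *Mmp24* ran against *Plat* (-0.476). *Plau* had r of 0.0203 to 0.188 with the other 4. With *Id1*, r was 0.749 for *Mmp24*, 0.618 for *Adamts15*, 0.216 for *Mmp2*, -0.0741 for *Plat* and -0.0589 for *Plau*. *Mmp24* and *Adamts15* had been selected on 0 h libraries in which *Id1* was changed, and these are among the 24. Their r with *Id1* is therefore no independent sign that they follow it.

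Among all other genes of the table, the 3 with the highest r to *Mmp2* over the same 24 libraries were *Tns3* (0.865), *Prkag2* (0.865) and *Itpripl1* (0.863). For *Mmp24* they were *Cyth3* (0.928), *Fermt2* (0.880) and *Fam220a* (0.879). For *Adamts15* they were *Rin3* (0.934), *Cobl* (0.927) and *Lrrk1* (0.924). *Plat* was most like *Zbtb7c* (0.936), *Prdm11* (0.900) and *Fam20a* (0.890), and *Plau* like *Pltp* (0.886), *Psmd7* (0.885) and *Tns4* (0.875).

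The members were set against the rest of their families and partners, in lists of 95 enzymes, receptors and inhibitors, of which 40 were in the table. Of 23 matrix metalloproteinases listed 7 were in it, *Mmp2*, *Mmp8*, *Mmp11*, *Mmp14*, *Mmp15*, *Mmp24* and *Mmp28*, and of 19 ADAMTS genes *Adamts1*, *Adamts6* and *Adamts15*. *Mmp9* and *Plg*, which encodes plasminogen, were not in the table. In *shId1* against *shScr* cells 1 of 7 MMPs and 1 of 3 ADAMTS genes were called at 0 h, against 1.94% of all genes. Both were members chosen on this contrast. At 24 h 1 of 7 and 0 of 3 were called, against 3.35% of all genes. Without the members 0 of 5 MMPs and 0 of 2 ADAMTS genes were called at either time. The median log2 fold change of the 7 MMPs was -0.26 at 0 h and -0.30 at 24 h, against 0.00 and 0.01 over all genes tested.

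*Mmp14* encodes the membrane-anchored MT1-MMP, which activates pro-MMP2 at the cell surface with the help of TIMP2. It was at 107, 105 and 94.0 in -dox and 164, 158 and 160 in +dox cells at 0 h, a log2 fold change of 0.65 (SE 0.08, limma adjusted p = 1.78e-05) under the 2-fold limit. At 24 h it was at 150, 166 and 147 in -dox and 157, 147 and 159 in +dox cells, which overlap (log2 fold change 0.00, SE 0.08, adjusted p = 0.987 in limma). Silencing of *Id1* gave -0.26 (SE 0.12, limma adjusted p = 0.220) at 0 h and 0.26 (SE 0.12, adjusted p = 0.158) at 24 h.

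*Timp2*, the inhibitor in that complex, was at 121, 147 and 157 in -dox and 331, 322 and 323 in +dox cells at 0 h, a log2 fold change of 1.203 (SE 0.10, limma adjusted p = 3.07e-07) that was called. It was at 232, 249 and 212 in *shScr* and 136, 138 and 155 in *shId1* cells at 0 h, -0.69 on the log2 scale (SE 0.12, adjusted p = 0.00389) and under the limit. After 24 h it was at 0.66 (SE 0.10, limma adjusted p = 0.000284) with ID1 induced and at -0.03 (SE 0.12, adjusted p = 0.921) with *Id1* silenced. *Timp2* was thus lower with *Id1* silenced and higher with ID1 induced in cells in low calcium, with no overlap in either.

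**Figure D4:**
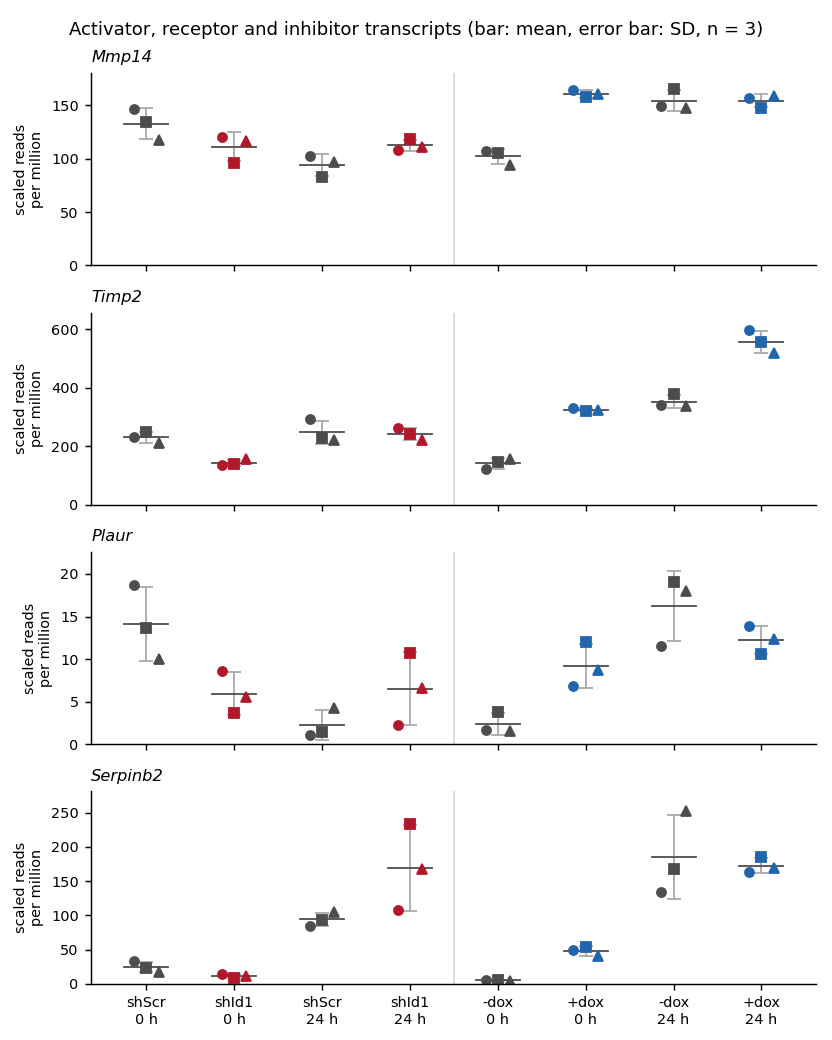
Levels of transcripts for partners of the proteases (vertical axes, TMM-scaled CPM, each starting at 0) in the 24 libraries, with replicates 1, 2 and 3 as circle, square and triangle, bars at the mean and error bars of 1 SD (n = 3). *Serpinb2* rises from 4.50 to 5.40 in -dox cells at 0 h to 134 to 253 at 24 h.

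*Plaur*, the receptor that holds urokinase at the cell surface, was called higher with ID1 induced at 0 h. It was at 1.63, 3.83 and 1.55 in -dox and 6.88, 12.02 and 8.77 in +dox cells at 0 h, with a log2 fold change of 1.84 (SE 0.27, limma adjusted p = 0.000127). After 24 h it was at 11.5, 19.1 and 18.0 in -dox and 13.8, 10.6 and 12.4 in +dox cells. *Plaur* rose over 24 h in -dox cells by 2.62 on the log2 scale (SE 0.27, adjusted p = 4.66e-07) and was at 0.42 (SE 0.27, limma adjusted p = 0.174) in +dox cells, a difference of -2.20 (SE 0.39, adjusted p = 0.00182). In *shScr* cells it fell, from 18.7, 13.7 and 9.96 to 1.11, 1.45 and 4.24 (log2 fold change -2.52, SE 0.51, limma adjusted p = 0.00109). In *shId1* cells it was at 8.64, 3.63 and 5.55 at 0 h and 2.26, 10.8 and 6.57 at 24 h, which overlap.

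*Serpinb2* (PAI-2), an inhibitor of both activators, was called higher with ID1 induced at 0 h. It was at 5.40, 5.31 and 4.50 in -dox and 50.005, 53.9 and 40.0 in +dox cells, a log2 fold change of 3.11 (SE 0.18, limma adjusted p = 1.36e-08). In these same libraries *Plau* was lower with ID1 induced.

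At 24 h *Serpinb2* was at 134, 168 and 253 in -dox and 163, 185 and 170 in +dox cells, which overlap. In the shRNA experiment *Serpinb2* rose over 24 h by 1.97 (SE 0.29, adjusted p = 8.86e-05) in *shScr* and 3.76 (SE 0.29, limma adjusted p = 1.18e-06) in *shId1* cells, and these rises differed by 1.79 (SE 0.40, adjusted p = 0.0223).

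All 40 of these enzymes, receptors and inhibitors, members included, could be tested in each experiment. With *Id1* silenced 1 was called higher and 2 lower at 0 h, against 1.94% of all genes in either direction. At 24 h 1 was higher and 2 lower, against 3.35% of all genes. The 2 lower ones were members both times. *Pcsk6*, which encodes a proprotein convertase, was the higher one each time, by 1.29 (SE 0.36, limma adjusted p = 0.0498) and 1.23 (SE 0.36, adjusted p = 0.0389). With ID1 induced 6 were higher and 2 lower at 0 h, against 5.27% of all genes. At 24 h 1 was higher and 1 lower, against 2.11% of all genes. *Mrc2*, an endocytic receptor for cut collagen, was lower both times, by -1.75 (SE 0.24, limma adjusted p = 7.01e-05) and -1.46 (SE 0.24, adjusted p = 0.000841).

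More of the 40 were called over 24 h in calcium, as were more of all genes, 15.6% to 30.8% against 1.94% to 5.27% with *Id1* silenced or ID1 induced. In *shScr* cells 8 were higher and 5 lower, in *shId1* cells 5 and 3, in -dox cells 14 and 5 and in +dox cells 7 and 2. *Ctsd*, a lysosomal protease, was called higher in all 4 conditions, by 1.30 to 1.43 on the log2 scale. *Adam15* was called higher in 3 of them, by 1.11 in *shScr*, 1.48 in -dox and 1.23 in +dox cells (limma adjusted p of 1.40e-05, 2.74e-07 and 2.80e-06). *Adam10* was called lower, at -1.25 in -dox and -1.32 in +dox cells. The epidermal kallikreins, serine proteases that loosen the outer epidermis, rose in the induction experiment, 4 of 4 tested in both conditions, with median log2 fold changes of 5.04 in -dox and 2.75 in +dox cells against -0.02 and -0.05 over all genes, and the rise was smaller with ID1 induced for all 4 by the test of that difference. All 4 also started higher in +dox than in -dox cells at 0 h, by 0.79 to 2.45 on the log2 scale, where *Klk7* alone was called. At 24 h their log2 fold changes in +dox against -dox cells were -0.34 to -1.28, and *Klk6* alone was called lower.

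Of 19 matrix substrates listed 13 could be tested. At 0 h 3 were lower with *Id1* silenced and 5 were higher with ID1 induced, where 1.94% and 5.27% of all genes were called in either direction. *Col4a1*, a type IV collagen chain that gelatinase A can cut, was at 185, 174 and 163 in *shScr* and 59.8, 49.3 and 65.8 in *shId1* cells, a log2 fold change of -1.58 (SE 0.21, limma adjusted p = 0.000918). It was at 55.7, 78.3 and 57.9 in -dox and 158, 188 and 198 in +dox cells, a log2 fold change of 1.50 (SE 0.12, adjusted p = 3.87e-07). At 24 h *Col4a1* was called lower in *shId1* cells, by -1.19 (SE 0.21, limma adjusted p = 0.00315). It was the only 1 of the 13 called there, against 3.35% of all genes. The median log2 fold change of the 13 with *Id1* silenced was -0.59 at 0 h and 0.42 at 24 h. With ID1 induced 0 of the 13 were called at 24 h, against 2.11% of all genes, and the median was 0.75 at 0 h and 0.14 at 24 h. *Vcan*, the versican that ADAMTS15 can cut, was called lower over 24 h at -2.02 in *shScr* (SE 0.18, adjusted p = 1.83e-06) and -1.75 in *shId1* cells (SE 0.18, limma adjusted p = 8.26e-06), where *Adamts15* was lower too. It was also called lower, at -1.11 (SE 0.25, limma adjusted p = 0.000997), in +dox cells, where *Adamts15* was higher. In -dox cells, where *Adamts15* was higher as well, *Vcan* was not called.

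Genes that fibroblasts also express moved with some of these groups. The summed level of the 5 listed fibroblast markers in the table, *Col6a1*, *Col6a2*, *Fbln2*, *Postn* and *Sparc*, was 909 to 1276 in *shScr* cells at 0 h, 728 to 909 in *shId1* at 0 h, 390 to 501 in *shScr* and 364 to 486 in *shId1* cells at 24 h. In the induction experiment it was 793 to 966 in -dox and 932 to 1031 in +dox cells at 0 h, and 754 to 780 and 776 to 861 at 24 h. The sum was lower at 24 h than at 0 h in all 4 conditions, without overlap, but its members did not move together. Over 24 h *Sparc* was called lower in *shScr* (-1.91) and *shId1* cells (-1.31), *Postn* higher in *shScr* (1.07) and lower in *shId1* (-1.66), -dox (-2.10) and +dox cells (-1.70), *Col6a1* higher in *shScr* (1.53), -dox (2.11) and +dox cells (1.04), and *Col6a2* higher in -dox cells (1.68). Between *shId1* and *shScr* cells at 24 h, where *Mmp2* and *Plat* were lower, the sums overlapped and *Postn* was called lower (-1.95, limma adjusted p = 0.00408). The part of feeder or other fibroblast RNA in the protease values was not tested, and fewer cells of a type and less RNA per cell cannot be told apart in these bulk libraries. Of 7 suprabasal markers listed 3 were in the table, *Krt10*, *Dsg1a* and *Ivl*, and *Krt1*, *Lor*, *Flg* and *Sbsn* were not. The 3 summed to 36.5 to 43.5 in *shScr* and 56.1 to 78.3 in *shId1* cells at 0 h and to 223 to 277 and 262 to 311 at 24 h. In the induction experiment they summed to 108 to 173 in -dox and 59.2 to 65.1 in +dox cells at 0 h and to 258 to 374 and 106 to 190 at 24 h. Over 24 h all 3 were called higher in *shScr* and in *shId1* cells. In -dox and +dox cells *Krt10* alone was called, higher by 4.54 and 3.18 on the log2 scale. The median log2 fold change of the 3 was 0.20 in -dox and 0.35 in +dox cells, so the sums there do not stand for all 3. Of 8 melanocyte markers 2 were in the table, summing to 4.73 to 20.4 over all libraries, and of 7 endothelial markers 1, at 2.99 to 25.6.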

How the data were processed

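Illumina TruSeq stranded mRNA libraries were sequenced by the authors, who converted base calls with bcl2fastq 2.19.1.403 and used the GRCm38 build. The aligner and counter are not given in the sources used here. The authors deposited a normalized signal for each gene, made with edgeR by TMM scaling and not divided by gene length. Every value was a whole number of reads within 0.05 of a read in all 24 libraries, and the size of the step could be checked in 18. Tests on reads therefore used those 18 alone, without the remaining 6, which left 1 library of *shId1* at 24 h and 1 of +dox at 0 h, assumed to vary like the other groups. Columns named H2BGFP were assigned to *shScr*. The members and the gene lists were chosen with earlier results of these data known.

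Each experiment, with its 12 libraries, had 1 limma 3.58.1 fit (R 4.3.3) of log2(value + 0.5), with variance trend and robust moderation. A gene was tested where 3 or more libraries reached a value of 1, and p-values were adjusted by Benjamini-Hochberg over all of them. A call took an adjusted p below 0.05 together with more than 2-fold change. The fit was tested on simulated data for *shId1* against *shScr* cells at 24 h only, with independent libraries and the same spread for all genes. That simulation does not show how the fit does for libraries that deviate together. Nor does it show this at levels as low as that of *Adamts15* in *shId1* cells at 24 h. Named besides the members were, from each list, up to 4 called genes with the lowest adjusted p in each comparison, the 3 genes most like each member, *Id1*, and marker lists as sums. *Mmp14* and the partners of the plasminogen activators were chosen for their roles after their values were seen, as were *BC029722* and *Mmp9*. Not every gene that meets the rule is printed.

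Same-numbered libraries of *shScr* and *shId1* deviated together, with correlations of 0.179 to 0.707 at 0 h and 0.298 to 0.709 at 24 h. However, *shId1* replicates 2 and 3 at 0 h and replicate 2 at 24 h correlated best with a *shScr* library of another number. Pairing by number is thus borne out only in part, so the main fit has no block and the block was run as an alternative. In every other comparison at least 1 pair was under 0.1.

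Other settings tried were pseudocounts of 0.1 and 1, filters at 5 or none, median-ratio scaling or quantile normalization, the compared groups only, all 24 libraries, the replicate block, array weights, no fold limit, edgeR 4.0.16 and DESeq2 1.42.0 on recovered reads, each library left out, and the shRNA experiment without its 4 libraries numbered 1. Positions and coding sequences come from GENCODE M21, in which 10815 of the gene IDs were found. Figures were drawn with matplotlib.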

Additional observations from a re-analysis of the deposited data

Results flagged for a closer look

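The change of *Plat* over 24 h differed between *shId1* and *shScr* cells, by -1.37 on the log2 scale with a limma adjusted p of 0.0205 for that difference. *Mmp24* had changes of opposite sign over 24 h, every library of 1 time lying on the same side of every library of the other, at -0.76 in *shScr* cells against 1.42 in *shId1*, 2.14 in -dox and 1.18 in +dox cells. *Adamts15* did so between the experiments, at -2.85 in *shScr* and -2.53 in *shId1* cells against 1.34 in -dox and 1.12 in +dox cells. The difference between *shId1* and *shScr* cells for *Mmp24*, 2.17, is given without its test, since the gene was chosen on those libraries, and the differences between the experiments were not tested for either gene.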

How the results depend on the processing

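Of the values of single proteases under the alternatives, 939 kept direction and side of the threshold or moved by less than the spread, 28 passed the threshold only there, 17 no longer passed it, 22 moved further and 13 with a test changed sign. With those given as descriptions, 20 changed sign. Of the 5 proteases, the number called with *Id1* silenced at 0 h was 1 with a pseudocount of 0.1, and at 24 h it was 1 with a pseudocount of 1, a filter at 5, which removes *Mmp2*, or edgeR on recovered reads, and 3, with *Adamts15*, with a pseudocount of 0.1, all 24 libraries or array weights. Over 24 h in *shId1* cells it was 2 with a pseudocount of 1, and 4, with *Mmp2*, with a pseudocount of 0.1, quantile normalization, array weights, no fold limit, edgeR, DESeq2 or without the libraries numbered 1. Over 24 h in *shScr* cells it was 2 with no fold limit. With ID1 induced at 0 h it was 2 with a pseudocount of 0.1, array weights or DESeq2 on recovered reads and 3 with no fold limit, and at 24 h it was 2 with array weights and 4 with no fold limit. In -dox cells over 24 h it was 5 with no fold limit.

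Leaving out 1 library, the number was 1 in every case with *Id1* silenced at 0 h, 1 to 3 at 24 h, 2 to 4 over 24 h in *shId1* cells, 1 to 2 for the interaction of *shId1* and time, 1 to 2 with ID1 induced at 0 h, and 0 to 1 for the interaction of +dox and time, where the case of 1 is *Mmp24* without -dox replicate 1 at 24 h. Near 0, *Plau* over 24 h in *shScr* cells ran from -0.042 to 0.21, and *Mmp24* with ID1 induced at 24 h from -0.25 to 0.22.

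Signs also changed for *Plau* over 24 h in *shId1* cells, at 0.0094 with edgeR and 0.037 with DESeq2, which hold 1 *shId1* library at 24 h, the highest of its group, for *Mmp24* with ID1 induced at 24 h, at -0.072 with quantile normalization, -0.035 with edgeR and -0.030 with DESeq2, for *Mmp2* over 24 h in +dox cells, at 0.12 with quantile normalization and 0.13 with array weights, and for *Plau* in the interaction of +dox and time, at 0.050 with quantile normalization. The descriptions that changed sign were *Plat* with *Id1* silenced at 0 h (0.0099 without *shId1* replicate 1), *Plau* there (0.032 without the libraries numbered 1 and 0.049 without *shScr* replicate 1) and *Adamts15* in the interaction of *shId1* and time (-5.15 with edgeR and -4.46 with DESeq2, where the only *shId1* library at 24 h holds 0 reads of it, -0.57 with a pseudocount of 0.1 and -0.17 without *shScr* replicate 3 at 24 h). None of these was called either way, and the causes were not tested. With the replicate block, 3 of 5 proteases were called with *Id1* silenced at 24 h against 2 without it, *Adamts15* being added, and no other call changed. A fit of the compared groups only has no interaction, and tests on reads used 18 libraries, with 1 for *shId1* at 24 h and for +dox at 0 h and 2 for *shId1* at 0 h and *shScr* at 24 h. Few reads limit *Adamts15* in the shRNA experiment at 24 h.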
